A study of Mus musculus with 11 samples.

Results

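Gsr encodes glutathione reductase, which uses NADPH to reduce glutathione disulfide, and in the mouse it lies on chromosome 8. Transcript levels of 10 other chromosome 8 genes, Arhgef10, Mak16, Wrn, Ppp2cb, Ubxn8, Gtf2e2, Rbpms, Dctn6, Leprotl1 and Saraf (older symbol Tmem66), were compared in livers of 6 Gsr-null and 5 wild-type (WT) mice. All 11 were males labelled C57BL/6J, 15 to 20 weeks old, and their livers were taken between 2 and 4 in the afternoon. The genes were chosen by symbol, with earlier results of these data known. Every probe set that the platform annotation gives to exactly 1 of these symbols was taken separately, which gave 19 of 22626 probe sets. The labels give the genotype as Gsr-null only. How the null allele was made, in which strain, and how often it was crossed to C57BL/6J are not given in the sources used here.

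An allele made in 1 strain and moved into another by repeated crossing keeps a stretch of donor DNA on both sides of the targeted gene. Genes in that stretch can then carry donor variants in their regulatory or transcribed sequence, and they are inherited together with the allele. On an array such a variant can also lie under a probe, in which case 1 probe set of a gene may change while the others do not. The genes next to a disrupted gene are therefore the usual place to look for such passenger DNA, probe set by probe set. In this design a difference from the donor stretch and a difference from the loss of Gsr cannot be told apart, because both go with genotype.

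In the gene order of the RefSeq table of assembly GRCm38.p6, 9 of the 10 genes lie close to Gsr and Arhgef10 does not. Ubxn8 and Gtf2e2 are the protein-coding neighbours on its 2 sides, with 0 protein-coding genes in between. On the side of Ubxn8 follow Ppp2cb with 1 protein-coding gene between it and Gsr, Wrn with 4 and Mak16 with 8. On the side of Gtf2e2 follow Rbpms with 2, Dctn6 with 3, Leprotl1 with 5 and Saraf with 6. Arhgef10 lies on the side of Ubxn8 with 155 protein-coding genes in between. Of the 24 protein-coding genes that are the 12 nearest on each side, 16 had a probe set of their own on the array and 10 had a tested one, among them 8 of these genes.

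The values are GCRMA summaries on the log2 scale, so a difference is the log2 of a fold. Tested probe sets were those with 5 or more samples above 4, a level above the median of all probe sets on each array (3.18 to 3.32), and 9560 probe sets passed. Of the 19 probe sets 14 were tested, and they cover 9 of the 10 genes, all but Wrn. Differences are Gsr-null minus WT, fitted with limma over all tested probe sets. A call is a Benjamini-Hochberg adjusted p under 0.05 over all of them, which 0.387% of tested probe sets reached.

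The livers had the markers of hepatocytes: all 8 listed genes were tested, with a mean level of 12.5 to 12.9 in Gsr-null samples and 12.3 to 12.8 in WT samples, and 0 of 24 tested marker genes of any cell type were called. At an unadjusted p under 0.05 were 4 of the 24, or 16.7%, where 8.77% of all genes were. They were the hepatocyte gene Tat (0.58), the endothelial Fcgr2b (-0.38), the collagen Col1a2 (0.89) and the erythroid Alas2 (0.59). Other markers of the same cell types did not all go the same way. Higher in sign were 5 of 8 tested hepatocyte markers (median 0.03) and 2 of 5 endothelial ones (median -0.21, Lyve1 0.62). Of the 4 stellate cell or fibroblast markers 3 were higher in sign, and Dcn differed by -0.10. The 4 tested stellate cell or fibroblast markers had a median difference of 0.53 and a mean level of 6.27 to 7.64 in Gsr-null samples and 6.54 to 6.90 in WT samples. Alas2, the 1 tested erythroid marker, had levels of 8.77 to 10.3 in Gsr-null livers, against 8.58 to 9.13 in WT livers. The part of these cell types in the differences of the 10 genes was not tested. None of the listed cholangiocyte, neutrophil, B cell or T and NK cell markers passed the filter. The arrays of Gsr-null samples 2 and 3 had a higher floor, with a 5th percentile of 1.79 and 1.76 against 1.53 to 1.62 on the others. The control probe sets for the 3' and 5' ends of Gapdh and Actb give a 3' minus 5' value, a readout of RNA integrity and labelling. It put the samples in a lower set of 3 Gsr-null (1, 2 and 3) and 2 WT samples (2 and 4) and a higher set of 3 Gsr-null and 3 WT samples. The labels call the samples biological replicates, and the number of arrays limits the precision of every value.

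Gsr was lower in all Gsr-null livers. On probe set 1421817_at its level lay between 4.71 and 5.29 in the Gsr-null samples, with a mean of 4.99 ± 0.21 (SD, n = 6), and between 6.62 and 6.93 in the WT samples, with a mean of 6.82 ± 0.13 (SD, n = 5). That probe set fell by 1.83 (log2, SE 0.12, limma adjusted p = 1.82e-05), to 0.281 of the WT level. Its other probe set, 1421816_at, fell by 1.84 (SE 0.32, limma adjusted p = 0.0331), a call that was lost when any of several single samples was left out. The difference between its probe sets was -0.0056 (95% interval -0.68 to 0.67). Their position against the disrupted stretch of Gsr was not analysed here, so they check the labels only in part.

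Arhgef10, a guanine nucleotide exchange factor, was the 1 gene of the 10 with a called change, and it was higher in Gsr-null livers on both of its probe sets. On 1452302_at the Gsr-null samples 1 to 6 had log2 values of 4.85, 5.07, 4.97, 4.31, 3.98 and 4.64, against 2.74, 2.17, 3.01, 2.65 and 2.74 in WT samples 1 to 5. The groups did not overlap, and the lowest Gsr-null value was 0.97 above the highest WT value. The means were 4.63 ± 0.42 (SD, n = 6) in Gsr-null and 2.66 ± 0.31 (SD, n = 5) in WT livers. Over all 22626 probe sets without a filter, where 0.15% were called and 0.0751% called higher, Arhgef10 rose by 1.97 (log2, 95% interval 1.53 to 2.42, limma adjusted p = 0.00212).

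The WT level of Arhgef10 on this probe set lay under the filter level and, in every WT sample, under the median of all probe sets, so no linear fold is given. In the filtered comparison 5 Gsr-null and 0 WT samples were above 4, exactly the number the filter asks for. A probe set that passes only through 1 group has to differ between the groups, so its p there (limma adjusted p = 0.0011) supports nothing beyond the unfiltered one.

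The second Arhgef10 probe set, 1452303_at, was not tested in the filtered comparison, since 1 sample was above 4. Its log2 values were 3.67, 4.23, 3.86, 3.14, 3.35 and 3.77 in Gsr-null samples 1 to 6, against 2.73, 2.36, 2.72, 2.54 and 2.54 in WT samples 1 to 5. Its groups did not overlap either. The difference was 1.09 (95% interval 0.72 to 1.46), and without a filter it was called (limma adjusted p = 0.0302). The 2 probe sets with no overlap among the 19 are the 2 of Arhgef10, where 0.986% of all 22626 probe sets had none. Since the genes were chosen with earlier results known, this comparison is a description and no test.

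The Arhgef10 probe sets pointed the same way but differed in size. Within a sample, 1452303_at minus 1452302_at was lower in Gsr-null than in WT livers by an amount that passed the test over all 7987 pairs of probe sets of the same gene without a filter (difference -0.88, SE 0.14, limma adjusted p = 0.0339), which 0.0876% of pairs did. All values of 1452303_at but 1 lay under the level of 4. The part of these low levels in the difference was not tested.

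**Figure D1:**
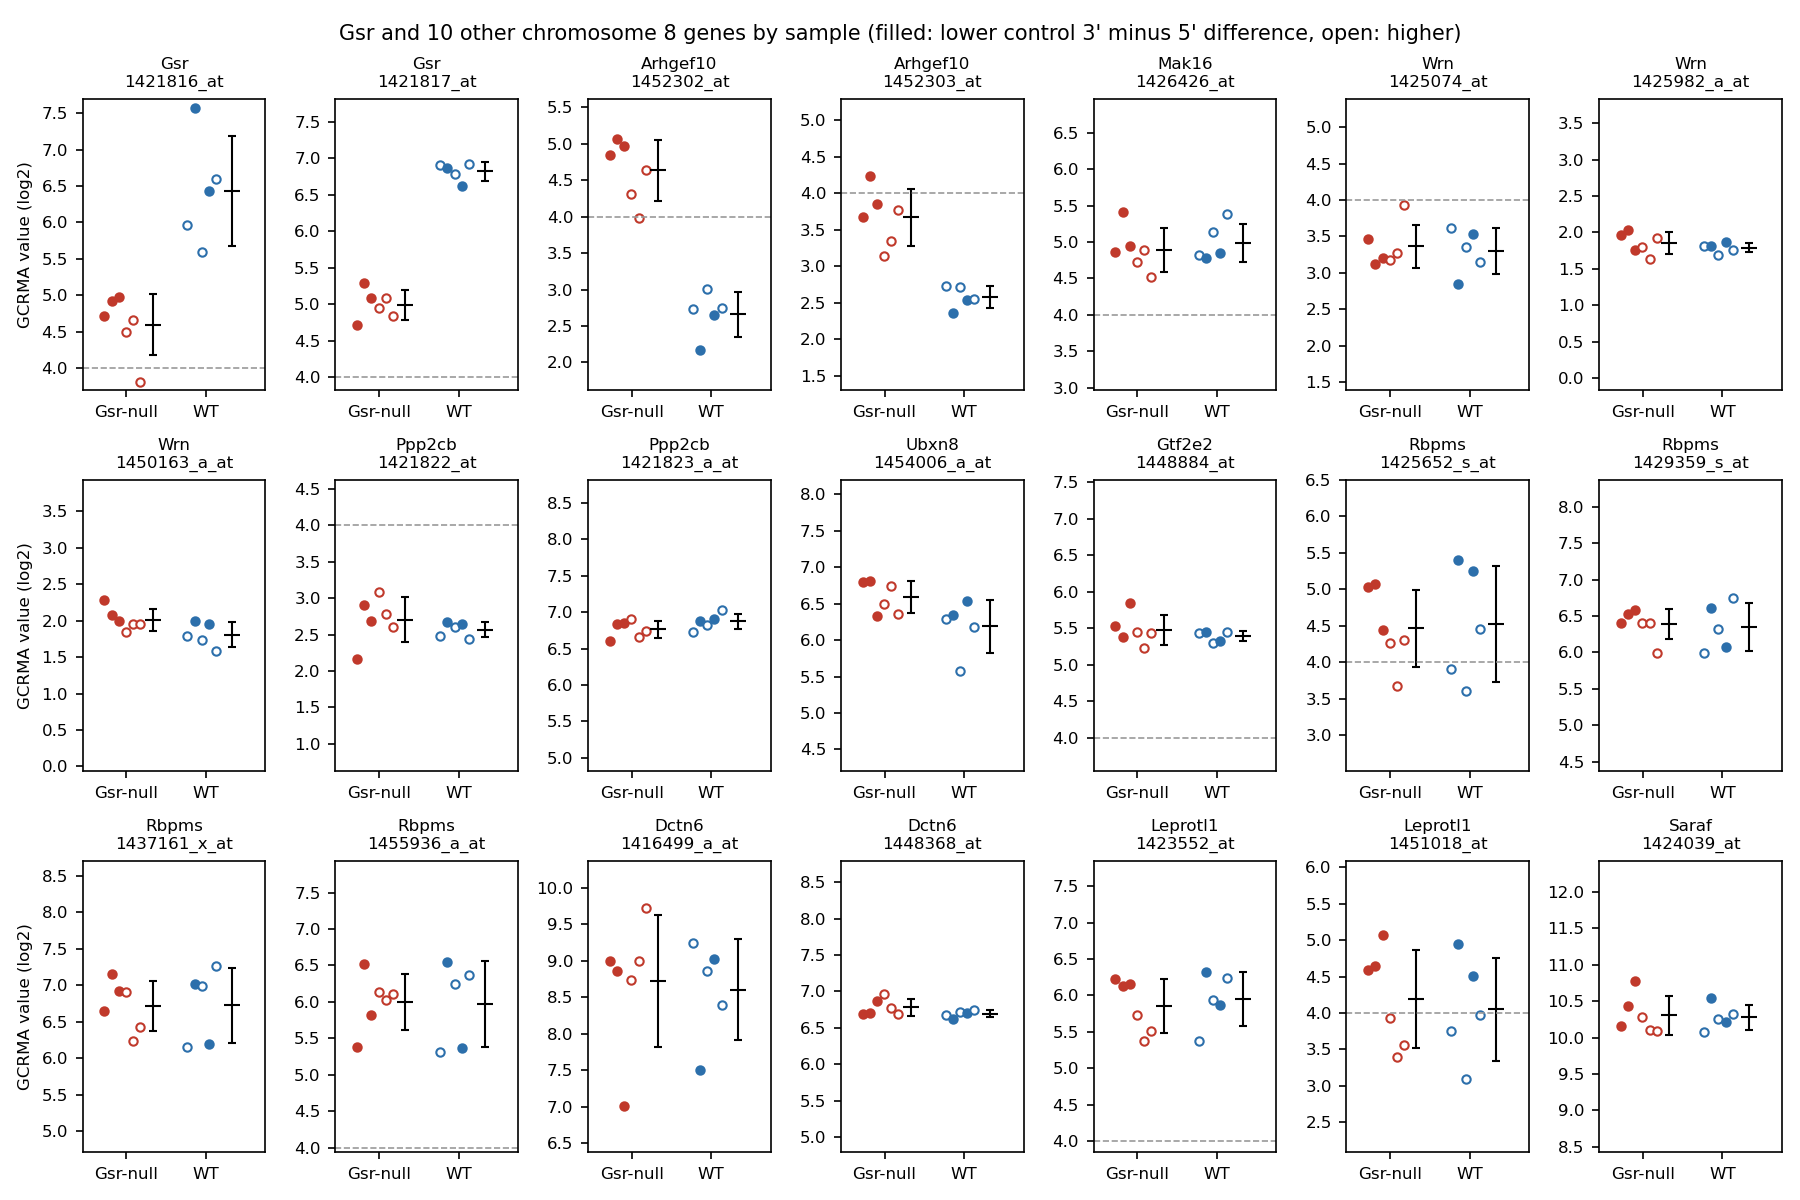
Log2 GCRMA value of each probe set of Gsr and of the 10 other genes, with Gsr-null samples left of WT samples and a bar at the mean with its SD; filled points are samples with the lower control 3' minus 5' difference, the dashed line marks the filter level of 4, and every panel spans the same log2 range. Gsr lies lower and both Arhgef10 probe sets lie higher in every Gsr-null sample, while the groups overlap in the other 17 panels.

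Among the Gsr-null samples, Arhgef10 on 1452302_at was highest in samples 1, 2 and 3, the 3 of the lower 3' minus 5' set. Within that set the Gsr-null samples had 4.85 to 5.07 and the WT samples 2.17 and 2.65, a difference of 2.55 between the means. Within the higher set the Gsr-null samples had 3.98 to 4.64 and the WT samples 2.74 to 3.01, a difference of 1.48. The genotypes were thus apart in each set. The difference between the sets, as a term of the fit, was 1.07 (SE 0.30, limma unadjusted p = 0.00444, limma adjusted p = 0.271), and 0% of tested probe sets were called for it, with 1078 at an unadjusted p under 0.05. Without Gsr-null samples 2 and 3, whose arrays had the higher floor, the difference of Arhgef10 was 1.78. The filter was kept from all 11 samples there, and Arhgef10 had passed it through its Gsr-null samples only. The p of that fit therefore adds no support and is not given.

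The other 9 genes, those close to Gsr, gave no call. Their 13 tested probe sets had differences between -0.11 and 0.40, and limma adjusted p values between 0.556 and 0.999. Their median absolute difference was 0.089, against 0.129 over all tested probe sets. The widest 95% intervals among them ran from -0.83 to 1.06, so changes of up to about that size on single probe sets would not have been resolved.

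Ubxn8, an endoplasmic reticulum protein whose UBX domain recruits the segregase p97, had the largest difference of them. On 1454006_a_at the Gsr-null samples 1 to 6 had log2 values of 6.79, 6.81, 6.34, 6.49, 6.74 and 6.35, against 6.29, 6.35, 5.58, 6.54 and 6.19 in WT samples 1 to 5. The groups overlapped, and WT sample 3 lay lowest. The difference was 0.40 (95% interval 0.02 to 0.78, limma unadjusted p = 0.0392, limma adjusted p = 0.556), an unadjusted p under 0.05 that 8.36% of tested probe sets reached. Without WT sample 3 it was 0.25.

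Gtf2e2, the beta subunit of the general transcription factor TFIIE, is the neighbour of Gsr on the other side, and its groups had almost the same level. On 1448884_at it lay between 5.23 and 5.84 with a median of 5.44 in Gsr-null samples, against 5.43, 5.45, 5.30, 5.33 and 5.44 in WT samples 1 to 5. The difference was 0.09 (95% interval -0.17 to 0.34, limma adjusted p = 0.965).

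Ppp2cb, a catalytic subunit of protein phosphatase 2A, was measured by a brighter and a dimmer probe set. On 1421823_a_at it lay between 6.60 and 6.90 with a median of 6.79 in Gsr-null samples, against 6.73, 6.88, 6.83, 6.91 and 7.03 in WT samples 1 to 5. The difference was -0.11 (95% interval -0.33 to 0.11, limma adjusted p = 0.93). The dim probe set 1421822_at stayed under 4 in all samples, at 2.17 to 3.08 in Gsr-null and 2.43 to 2.68 in WT samples.

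Mak16, a nucleolar protein known from yeast for its part in assembling the large ribosomal subunit, averaged 4.89 ± 0.30 (SD, n = 6) in Gsr-null and 4.99 ± 0.26 (SD, n = 5) in WT livers. Its difference was -0.10 (95% interval -0.47 to 0.27, limma adjusted p = 0.978). It was 0.26 within the lower and -0.40 within the higher 3' minus 5' set, and the groups overlapped over all samples.

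Wrn, the RecQ helicase and exonuclease whose loss causes Werner syndrome in humans, stayed under the level of 4 in all 11 samples on all 3 of its probe sets. On 1425074_at it lay between 3.13 and 3.93 in Gsr-null and between 2.85 and 3.62 in WT samples. The other 2, 1425982_a_at and 1450163_a_at, lay between 1.63 and 2.28 in Gsr-null and between 1.58 and 2.00 in WT samples. Without a filter their differences were 0.06, 0.06 and 0.21, with limma adjusted p values of 0.956, 0.908 and 0.692. Wrn was thus too dim for the filtered test.

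Rbpms, an RNA-binding protein that regulates splicing in smooth muscle, has 4 tested probe sets, all of kinds that can bind several transcripts. Their differences were -0.06, 0.04, -0.01 and 0.03, with the limma adjusted p at 0.999 for each. The spread among samples of 1 genotype was far larger than that. On 1437161_x_at the Gsr-null samples lay between 6.23 and 7.16 with a median of 6.78, against 6.15, 7.02, 7.00, 6.20 and 7.26 in WT samples 1 to 5. WT samples 1 and 4 were low and the other 3 WT samples high on this probe set and on 1455936_a_at.

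Dctn6, the p27 subunit of the dynactin complex, which links cargo to the motor dynein, showed its widest spread within genotypes. On 1416499_a_at the Gsr-null samples lay between 7.01 and 9.73 with a median of 8.93, against 9.24, 7.50, 8.86, 9.02 and 8.40 in WT samples 1 to 5. Gsr-null sample 3, at 7.01, and WT sample 2 lay well under the rest of their groups. On the other probe set, 1448368_at, Gsr-null sample 3 was among the highest, and all values lay close together. Gsr-null samples lay between 6.70 and 6.96 and WT samples between 6.62 and 6.75. The differences were 0.12 (95% interval -0.83 to 1.06) and 0.09 (95% interval -0.12 to 0.30), with limma adjusted p values of 0.999 and 0.946.

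Leprotl1, an endosomal membrane protein known in humans to lower growth hormone receptor at the cell surface, had 2 tested probe sets, with differences of -0.09 (95% interval -0.55 to 0.36) and 0.14 (95% interval -0.66 to 0.94). Both had a limma adjusted p of 0.99. Saraf, which shuts down store-operated calcium entry, averaged 10.3 ± 0.26 (SD, n = 6) in Gsr-null and 10.3 ± 0.17 (SD, n = 5) in WT livers. Its difference was 0.03 (95% interval -0.29 to 0.34, limma adjusted p = 0.999).

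**Figure D2:**
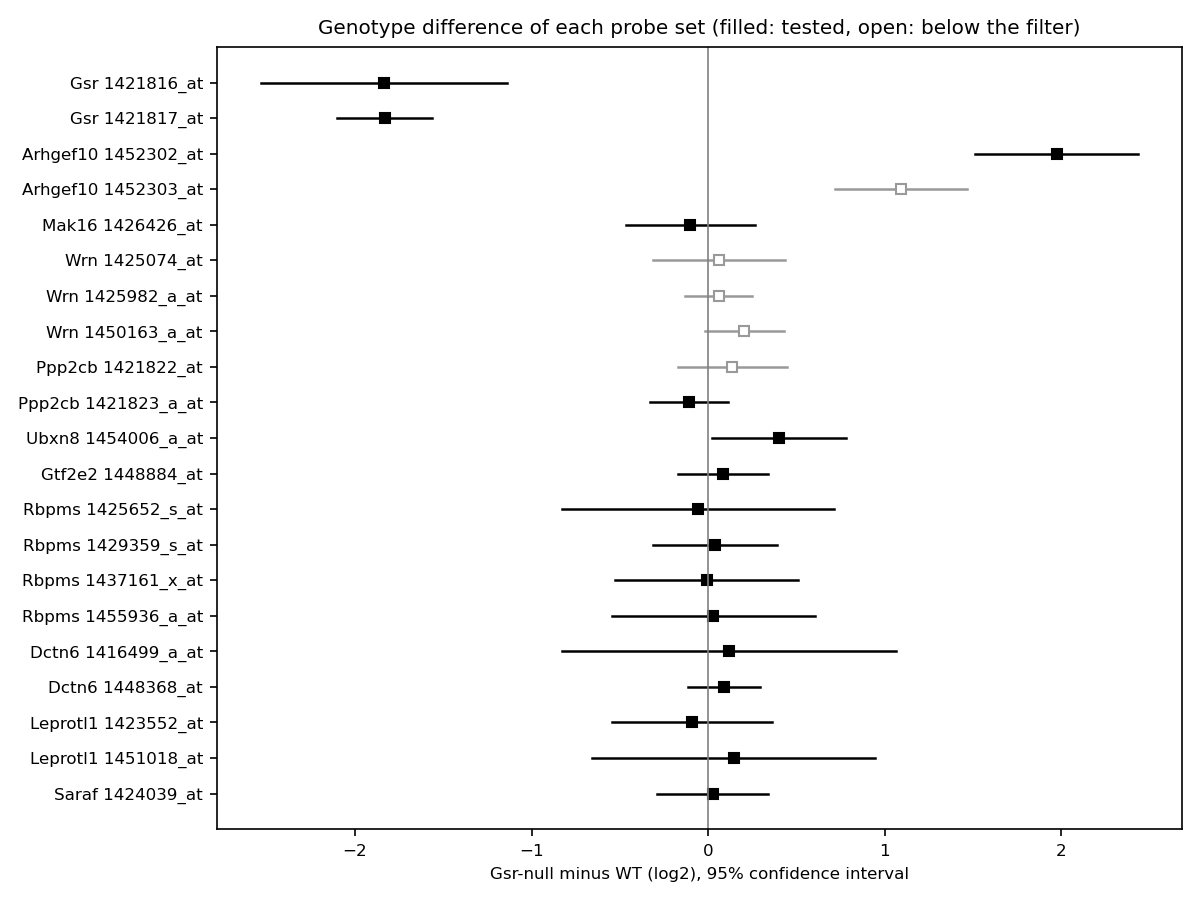
Gsr-null minus WT difference on the log2 scale for each probe set of Gsr and the 10 other genes, with its 95% confidence interval from limma; filled squares were tested, and open squares lie under the filter level and take their interval from the comparison without a filter. The 2 Gsr probe sets lie near -1.8 and the 2 of Arhgef10 at 1.97 and 1.09, and of the others the interval of Ubxn8 alone leaves out 0.

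The tested probe sets of Rbpms, Dctn6 and Leprotl1 did not differ detectably in their response to genotype in the filtered comparison. Among 2745 pairs of tested probe sets of the same gene 0.0729% were called, and 0 of the 5 pairs of Rbpms, Dctn6 and Leprotl1 were, with limma adjusted p values of 1.00 and 5 of 5 unadjusted p values of 0.409 or more. The largest of these differences was 0.24 (95% interval -0.37 to 0.84), for 1451018_at minus 1423552_at of Leprotl1. The widest interval was that of Dctn6, for 1448368_at minus 1416499_a_at (difference -0.03, 95% interval -1.02 to 0.96). Differences between probe sets within that range would not have been resolved there. Arhgef10, Mak16, Ppp2cb, Ubxn8, Gtf2e2 and Saraf had 1 tested probe set each and could not be compared in this way. The pair of Arhgef10 was called in the comparison without a filter given above.

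Some of these probe sets followed the 3' minus 5' sets of the samples instead. Leprotl1 on 1451018_at lay between 4.50 and 5.07 in the 5 samples of the lower set and between 3.10 and 3.97 in the 6 of the higher set, with both genotypes on each side and no overlap. With genotype in the same fit the lower set was 1.13 above the higher one (SE 0.18, limma adjusted p = 0.00457). The 5 samples of the lower set are also the 5 through which this probe set passed the filter, so it had to differ between the sets. Rbpms on 1425652_s_at lay between 4.44 and 5.40 in the lower set and between 3.61 and 4.46 in the higher, a difference of 1.02 (SE 0.21, limma adjusted p = 0.0148). These 2 of the 14 tested probe sets were called for the sets, where 6.37% of all tested probe sets were. The comparison of the sets was chosen after the values had been seen. Arhgef10 on 1452302_at was not called for the sets (difference 0.18, SE 0.21, limma adjusted p = 0.695).

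**Figure D3:**
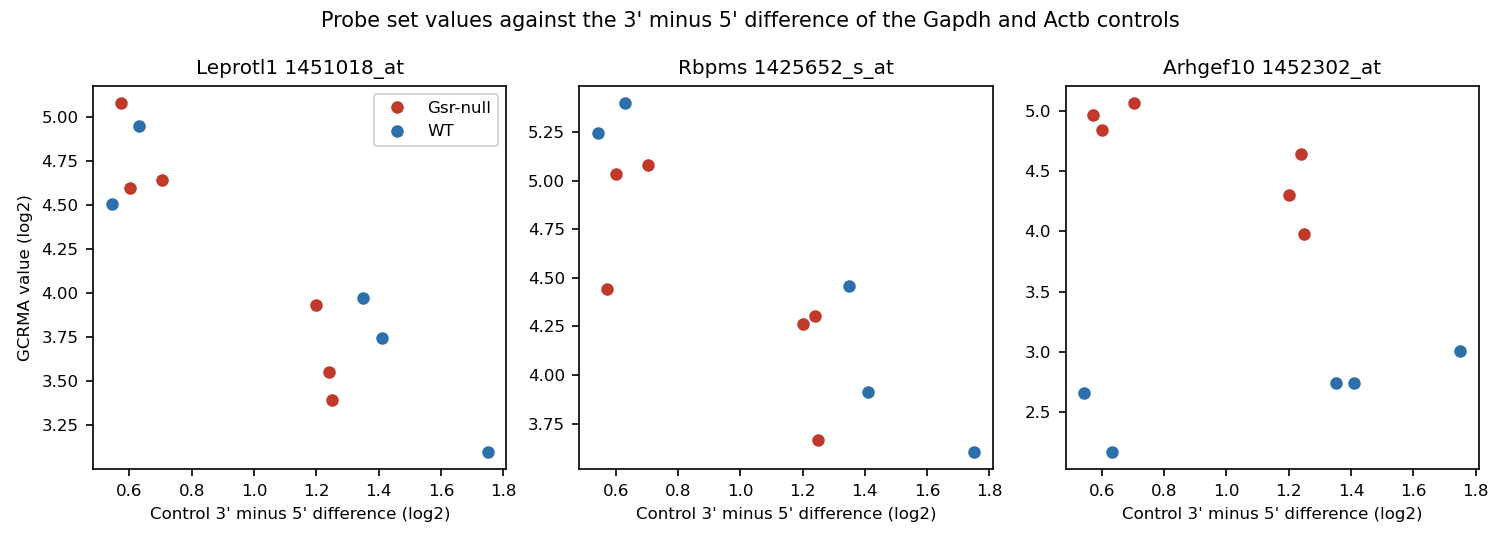
Log2 GCRMA value of 3 probe sets against the control 3' minus 5' difference on the log2 scale, 1 point per sample in the colour of its genotype. The samples fall into 2 sets on the horizontal axis that hold both genotypes; Leprotl1 and Rbpms are higher in the left set, while Arhgef10 separates by genotype in both.

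The wider neighbourhood of Gsr was read from all measured genes, each by its brightest tested probe set. Of the 10 measured genes that are the 5 nearest on each side, 0 were called by limma and 1 had an unadjusted p under 0.05, Ubxn8. Of the 25 nearest on each side 0 of 50 were called and 7 had an unadjusted p under 0.05, or 14.0%. Of the 50 nearest on each side 1 of 100 was called, Arhgef10, which entered through its Gsr-null level, and 13 had an unadjusted p under 0.05. Over all 6021 genes other than Gsr 0.415% were called and 8.77% had an unadjusted p under 0.05. Of the 334 measured genes of the whole of chromosome 8 other than Gsr, 12.3% had one. The median differences were -0.018 for the 50 genes and -0.019 for the 100, against -0.032 over all genes. Groups without overlap were found for 3 of the 50 and 5 of the 100, where 1.49% of all genes and 2.40% of chromosome 8 genes had them.

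Between Arhgef10 and Gsr lie 29 measured genes, of which 0 were called. Their differences ran from -0.65 to 0.87 with a median of 0.0076, 16 positive and 13 negative. An unadjusted p under 0.05 was found for 6 of them, or 20.7%, against 8.77% of all genes and 12.3% of chromosome 8 genes. The next measured gene to Arhgef10 on the Gsr side, 2610005L07Rik, had a difference of 0.87 on 1452997_at (SE 0.25, limma adjusted p = 0.258) with overlapping groups, and 0.19 on its other tested probe set. The next on the far side, Cln8, had 0.03. Around Arhgef10 the 5 measured genes on each side had differences between -0.66 and 0.87 with a median of -0.022, and 0 of these 10 were called. Of the 10, 3 had an unadjusted p under 0.05 and 1 had no overlap. These compare with 8.77% and 1.49% of all genes and 12.3% and 2.40% of chromosome 8 genes.

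Beside Arhgef10 the smallest p values among the 100 genes belonged to Tm2d2, Coprs, 2610005L07Rik and Klkb1, and none of these 4 passed the test. Tm2d2, a transmembrane protein, was lower without overlap on 1456663_x_at, at 8.04 to 8.80 in Gsr-null and 8.85 to 9.29 in WT samples (difference -0.65, SE 0.16, limma adjusted p = 0.164). Its other 6 tested probe sets overlapped between the groups, with differences from -0.0037 to 0.34. In each of the 6 pairs with 1456663_x_at the responses differed at a limma unadjusted p between 0.00205 and 0.0357. Of all pairs 2.91% had one under 0.05, but 0 of the 6 passed the adjustment (lowest limma adjusted p = 0.553). All 6 pairs share 1456663_x_at, which was named for its small p. They are therefore not separate comparisons, a difference was favoured in advance, and the share of all pairs is no measure for them.

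Coprs was lower without overlap on 1420113_s_at, at 3.58 to 4.18 in Gsr-null and 4.28 to 5.00 in WT samples (difference -0.66, SE 0.17, limma adjusted p = 0.173). These values lie near the filter level of 4, and the 5 WT samples alone would pass the filter. The other tested probe set of Coprs overlapped, with a difference of -0.18. Klkb1, the plasma prekallikrein made by hepatocytes, lay between 10.3 and 10.7 in Gsr-null and between 10.7 and 11.1 in WT samples, also without overlap (difference -0.38, SE 0.11, limma adjusted p = 0.28). Ufsp2, a protease that processes the ubiquitin-like modifier UFM1, was the remaining gene without overlap and is named for that after its values were seen (difference 0.22, limma adjusted p = 0.554). The genes without overlap lie on both sides of Gsr and have both signs.

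**Figure D4:**
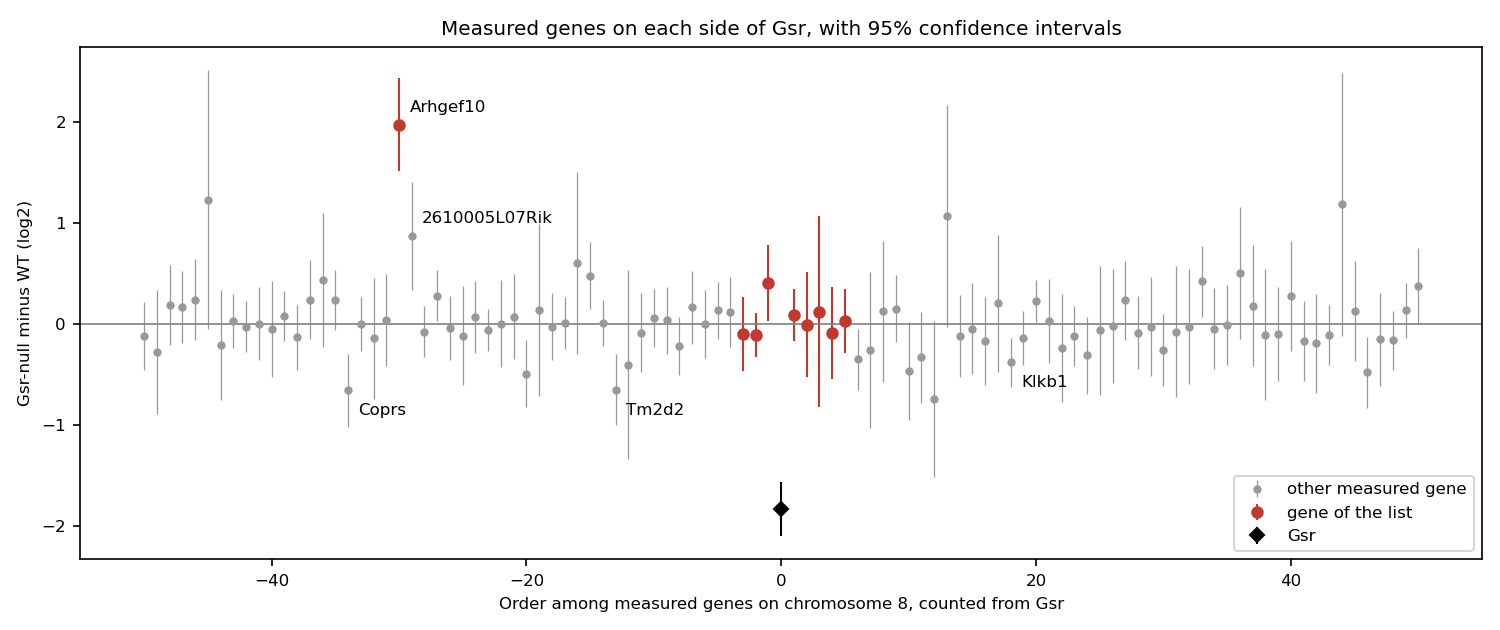
Gsr-null minus WT difference on the log2 scale with its 95% confidence interval for measured chromosome 8 genes in their order, 50 to either side of Gsr; the horizontal axis counts measured genes and not bases. Gsr lies at -1.83 and Arhgef10, 30 measured genes away, at 1.97, while the genes next to Gsr lie between -0.11 and 0.40.

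Genes that work with the 10 were not called. Of 103 listed partners 65 were tested, and 0 were called by limma, where 0.415% of all genes were. At an unadjusted p under 0.05 were 2, or 3.08%, against 8.77% of all genes. Gtf2b, the general factor TFIIB, differed by -0.53 (limma adjusted p = 0.263) among 10 tested basal transcription factors with a median of -0.02. Stim1, the calcium sensor that Saraf acts on, differed by -0.25 (limma adjusted p = 0.569) and was the 1 tested gene of store-operated calcium entry.

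The other partner lists had 0 members at an unadjusted p under 0.05. The medians were -0.06 for 11 protein phosphatase 2A subunits (Ppp2r5d -0.20), -0.05 for 10 p97 cofactors (Ubxn6 -0.19), 0.01 for 9 dynactin subunits (Dctn1 0.24) and -0.11 for 14 large ribosomal subunit assembly factors (Rrs1 -0.29). The RecQ helicase Recql differed by -0.04 and Leprot, the paralog of Leprotl1, by -0.20. Rbpms2, the paralog of Rbpms, has no probe set annotated to it alone and was not tested.

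The probe sets whose values most resembled Arhgef10 on 1452302_at over the 11 samples lay on other chromosomes. Ginm1 on 1424026_s_at, on chromosome 10, had a Pearson correlation r of 0.94 and a Spearman correlation of 0.945. Pdxdc1 on 1419327_at, on chromosome 16, had 0.928 and 0.743, and Sae1 on 1416443_a_at, on chromosome 7, had 0.921 and 0.818. These were picked as the highest r among all tested probe sets of other genes, so they are a description with no test. Within the 6 Gsr-null samples alone r was 0.886, 0.081 and 0.307. Ginm1 averaged 9.06 ± 0.40 (SD, n = 6) in Gsr-null and 8.11 ± 0.29 (SD, n = 5) in WT livers, with overlapping groups (limma adjusted p = 0.094). On these probe sets Pdxdc1 averaged 6.74 ± 0.47 and 2.92 ± 0.30 in Gsr-null and WT livers (SD, n = 6 and 5). Sae1 averaged 8.34 ± 0.43 and 6.29 ± 0.14 (SD, n = 6 and 5). Both were called higher (limma adjusted p = 7.83e-06 and 0.0004). The WT level of Pdxdc1 on 1419327_at lay under the filter level of 4, so it passed the filter through its Gsr-null samples only. Its p therefore adds no support, as for Arhgef10. The brightest tested probe set of Pdxdc1 was instead called lower, by -1.33 (limma adjusted p = 0.0265). It averaged 6.06 ± 0.42 in Gsr-null and 7.38 ± 0.36 in WT livers (SD, n = 6 and 5). Within a sample, 1419327_at minus that probe set differed between genotypes by 5.15 (limma adjusted p = 4.89e-07). This pair entered through the Gsr-null level of 1419327_at, so its p adds no support either. The cause of the difference of 5.15 was not tested.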

How the data were processed

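Liver RNA of 6 Gsr-null and 5 WT mice was measured on single-colour Affymetrix mouse arrays. The deposited values are GCRMA summaries, 1 for each probe set in each sample, and are read here as log2 from their range. Per the submitters' processing notes GCRMA was the authors' method. It combines a sequence-based background correction with normalization across arrays. Its version and settings are not given in the sources used here. Scanner files were not used.

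Of 22690 probe sets 64 controls were left out. Of the rest 20380 had 1 symbol in the platform annotation, 691 several and 1555 none. Entrez identifiers of 20351 were found in the RefSeq table of GRCm38.p6, which gave chromosomes and gene order only, and no coordinates are given because the array names no build. Tests used limma 3.58.1 in R 4.3.3 (lmFit, eBayes) on probe sets with 5 or more samples above 4 (log2), adjusted over all 9560. The probe set with the highest mean stood for a gene, of 6022. Pairs of probe sets were tested on their within-sample difference. The fits were tested on simulated data. Figures used matplotlib 3.10.9 in Python 3.11.15.

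Named genes are Gsr, the 10 genes, the called chromosome 8 genes and the 5 of smallest p among 50 on each side, the 3 probe sets most like a called one, and called or smallest-p partners. The genes and lists were chosen with earlier results of these data known. The result of 1 partner list is not reported here. Alternatives covered filters, scaling, variance models, weights, blocks, thresholds and left-out samples.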

Additional observations from a re-analysis of the deposited data

Results flagged for a closer look

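In 2 of 42 groups of values, those of the probe sets of Gsr and the 10 genes in each genotype, 1 sample stood far from the others of its group, where chance would give 2.1. Dctn6 on 1416499_a_at was 7.01 in Gsr-null sample 3, with the other Gsr-null samples at 8.73 to 9.73. Rbpms on 1429359_s_at was 6.00 in Gsr-null sample 6, with the rest of its group at 6.40 to 6.58.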

How the results depend on the processing

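The filter asking for 6 samples above 4 was added after the data were seen. Called probe sets, 37, became 14 with a filter level of 6, 10 without moderation, 10 without Gsr-null samples 2 and 3, 12 at an adjusted p under 0.01, and 14 to 42 on leaving out 1 sample, moving by over 1.5 times without Gsr-null sample 2 (23) or 3 (22) or WT sample 1 (17), 2 (20), 3 (21), 4 (24) or 5 (14). Of the 10 genes, 1 probe set was called higher, 2 with no filter or a filter at 3, where the other Arhgef10 probe set enters, and 0 with a filter at 5 or 6 or one asking for 6 samples above 4, where neither is tested. Leaving out any 1 sample kept 1, with the filter held as set on all 11 samples. Arhgef10 passed that filter through its Gsr-null samples only, so these kept calls and their adjusted p add no support. None was called lower under any alternative. With 50 genes on each side the 1 call became 0 under those 3 filters, and 0 with no filter, where more genes are measured and Arhgef10 lies further out. Called pairs, 2, became 7 with no filter and 5 with a filter at 3. Arhgef10 on 1452302_at ranged from 1.78 to 2.10, with limma adjusted p from 0.000587 to 0.0604. Gsr on 1421817_at ranged from -1.93 to -1.77 and was called throughout, while 1421816_at (-2.05 to -1.55) lost its call under 12 of 23 alternatives, among them each of Gsr-null samples 1 to 5 and WT samples 1, 4 and 5 left out. Of 332 values of the 10 genes under alternatives 301 kept their label, 30 uncalled differences near 0 changed sign, and 0 uncalled ones became called.

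With the replicate block 3 probe sets were called, 0 of the 10 genes (Arhgef10 1.97, limma adjusted p = 0.0604), 0 of 100 neighbours and 1 pair. The labels do not say that numbers pair animals. The same-number pairs had deviation correlations of -0.173, 0.0361, -0.0561, -0.243 and -0.171, with 0 of 5 best matches at the own number. Background correction, probe summary and slide could not be varied without scanner files.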
